A study of Mus musculus with 12 samples.

Results

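The 9 genes described here encode proteins that carry sodium and potassium across the tubule wall along the length of the nephron, together with uromodulin, the main protein of normal urine. They were chosen by name: the exchanger Slc9a3, the cotransporters Slc12a1 and Slc12a3, the epithelial sodium channel subunits Scnn1a, Scnn1b and Scnn1g, the sodium pump subunit Atp1b1, the potassium channel Kcnj1, and Umod. All 9 were among the 23183 genes of the series and all 9 passed the filter on low values, which left 13243 genes tested. Levels are given as FPKM, the unit the values were taken to have. In it the fragments of a gene are divided by its transcript length and by a total of the library, so that they can be compared between genes. Whether that total was the mapped total or a scaled one is not given in the sources used here.

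RNA was sequenced from the kidney cortex of male C57BL/6 mice (C57BL/6N in the study's methods) of 6 to 7 weeks, on day 7 after unilateral ureteral obstruction. This surgery closes the ureter of a single kidney, so each animal gives an obstructed kidney (UUO) and an untouched contralateral kidney (CL), which served as the control. The 4 groups of 3 libraries were Acot12+/+ CL, Acot12+/+ UUO, Acot12-/- CL and Acot12-/- UUO. Acot12-/- mice lack the acyl-CoA thioesterase Acot12 in every tissue, from a mutant allele made with an engineered nuclease and passed through the germline. The CL kidney of an operated mouse is not an unoperated kidney, and a kidney from an unoperated mouse was not analysed here. The labels do not say that replicates came from separate mice, so p-values measure the spread between these libraries.

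Acot12 itself was 73.8, 52.7 and 78.1 FPKM in CL libraries of Acot12+/+ mice against 9.14, 9.01 and 6.80 in those of Acot12-/- mice. In the UUO kidneys it was 9.98, 16.7 and 21.2 FPKM in Acot12+/+ mice against 3.28, 1.80 and 3.86. It was lower in every Acot12-/- library than in any Acot12+/+ library of the same kidney. Library sizes were estimated from the steps between the lowest values. They were smaller in CL libraries, at 12480000 to 13700000 fragments for Acot12+/+ and 14310000 to 16290000 for Acot12-/- mice. UUO libraries had 21370000 to 23090000 and 18760000 to 22170000. If the library totals were scaled, these are effective sizes and not depths. The lowest member, Slc9a3, rested on 57 to 633 fragments per library, and Atp1b1, the deepest, on 16417 to 68763. The tissue was labelled cortex, and 2 genes listed as markers of the inner medulla were read in it. Whether they show medulla in the samples was not tested. Aqp4, a water channel, ran from 4.92 to 29.9 FPKM in CL and from 1.20 to 2.83 in UUO libraries. Slc14a2, the other of the 2 markers listed, was not called with UUO, and its difference was above 0 in both genotypes. Summed, the 2 markers overlapped, at 5.85 to 40.4 FPKM in CL and 7.80 to 26.6 in UUO libraries.

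Most filtered sodium is taken back in the proximal tubule, where the sodium/proton exchanger NHE3 (Slc9a3) sits in the luminal membrane. The thick ascending limb takes up sodium, potassium and chloride through NKCC2 (Slc12a1), returns potassium to the lumen through ROMK (Kcnj1) and secretes uromodulin (Umod). The distal convoluted tubule uses the sodium-chloride cotransporter NCC (Slc12a3), and the connecting tubule and collecting duct use the epithelial sodium channel ENaC, built from the subunits alpha (Scnn1a), beta (Scnn1b) and gamma (Scnn1g). In all of these cells the sodium pump of the basolateral membrane, of which Atp1b1 encodes a beta subunit, drives the transport.

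The members lie on 7 chromosomes of GRCm38, with only Umod, Scnn1g and Scnn1b sharing a chromosome. Umod spans chr7:119462711-119479282 on the minus strand, Scnn1g chr7:121734479-121768475 and Scnn1b chr7:121865038-121918514, both on the plus strand. The genes of the beta and gamma subunits are thus neighbours in the same orientation, 96562 bases apart, while Scnn1a is on chromosome 6 (chr6:125320659-125344943). Slc9a3 is at chr13:74121457-74169442, Slc12a1 at chr2:125152505-125230002, Slc12a3 at chr8:94329201-94366214, Atp1b1 at chr1:164437109-164458355 and Kcnj1 at chr9:32372493-32399197. Exons of the opposite-strand gene Nme7 cover 575 of the 3081 exon bases of Atp1b1, and exons of the antisense gene Gm44588 cover 539 of the 2763 of Umod. Whether fragments were counted by strand is not given in the sources used here, but Nme7 was listed at 9.33 to 17.2 FPKM, far under the levels of Atp1b1.

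The sequence just upstream of the annotated start is shown for 4 members, read from RefSeq (GRCm38.p6) and written 5′ to 3′ on the strand of the gene. Umod and Slc12a1 are shown because both are genes of the thick ascending limb, and Scnn1b and Scnn1g because they are neighbours of which a single member passed the test. The stretches are chr7:119479283-119479512 for Umod, chr2:125152350-125152504 for Slc12a1, chr7:121864788-121865037 for Scnn1b and chr7:121734229-121734419 for Scnn1g. Capitals mark the letters of a searched motif.
Umod: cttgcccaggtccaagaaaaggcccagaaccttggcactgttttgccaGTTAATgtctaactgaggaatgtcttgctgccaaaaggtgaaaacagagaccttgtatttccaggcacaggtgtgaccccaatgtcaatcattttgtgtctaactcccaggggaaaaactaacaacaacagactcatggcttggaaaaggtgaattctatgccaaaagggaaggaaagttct
Slc12a1: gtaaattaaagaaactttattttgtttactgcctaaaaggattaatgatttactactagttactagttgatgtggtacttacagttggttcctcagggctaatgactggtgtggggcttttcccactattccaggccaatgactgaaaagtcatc
Scnn1b: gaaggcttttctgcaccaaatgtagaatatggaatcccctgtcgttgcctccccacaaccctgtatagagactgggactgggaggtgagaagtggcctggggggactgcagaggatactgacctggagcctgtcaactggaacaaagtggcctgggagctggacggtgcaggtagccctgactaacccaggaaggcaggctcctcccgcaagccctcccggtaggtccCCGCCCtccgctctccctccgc
Scnn1g: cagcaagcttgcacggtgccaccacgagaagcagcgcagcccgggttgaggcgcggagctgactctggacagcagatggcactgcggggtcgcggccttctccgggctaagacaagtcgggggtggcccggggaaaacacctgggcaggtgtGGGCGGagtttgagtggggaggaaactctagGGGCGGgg
The motifs searched on both strands were a TATA box (TATAAA), a half-site of the kidney and liver factor HNF1 (GTTAAT), a half-site of steroid receptors (AGAACA) and a GC box of the Sp1 kind (GGGCGG). The promoter table held 8 of the 9 members, all but Scnn1a. GTTAAT was found in the Umod window alone of these 8, and in 6.52% of 27025 promoters. GGGCGG was found in 5 of the 8 (Atp1b1, Scnn1b, Scnn1g, Slc12a3 and Slc9a3) and in 32.9% of all promoters. TATAAA was found in Slc12a3 alone (13% of all) and AGAACA in Kcnj1 alone (16.2% of all). The search covered 250 bases of each promoter, which in some members run past the annotated start. In Slc12a3 the TATAAA lay outside the 151 bases upstream of that start. For Kcnj1 and Slc9a3 no upstream stretch was obtained, so their motifs cannot be placed upstream. The Slc12a1 window held none of the 4. No motif was tested against the changes below.

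In CL kidneys the members spanned levels from the few FPKM of Slc9a3 to those of Umod and Atp1b1. Umod and Atp1b1 were the highest in every group, followed by Slc12a1, Kcnj1 and Slc12a3, then by the ENaC subunits, with Slc9a3 the lowest. In Acot12+/+ CL the means were 1344 ± 560 (SD, n = 3) FPKM for Umod, 1194 ± 180 for Atp1b1, 203 ± 90.3 for Slc12a1, 120.2 ± 43.7 for Kcnj1, 102 ± 23.2 for Slc12a3, 29.2 ± 4.48 for Scnn1a, 18.4 ± 2.62 for Scnn1b, 15.02 ± 3.72 for Scnn1g and 6.42 ± 1.63 for Slc9a3. Neighbours in this order overlapped between Umod and Atp1b1, between Slc12a1, Kcnj1 and Slc12a3, and between Scnn1b and Scnn1g. The steps from Atp1b1 to Slc12a1, from Slc12a3 to Scnn1a, from Scnn1a to Scnn1b and from Scnn1g to Slc9a3 were larger than the spread, with no overlap between libraries. In Acot12-/- CL Atp1b1 (1639 ± 344) stood above Umod (1080.2 ± 153) in all 3 libraries.

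**Figure D1:**
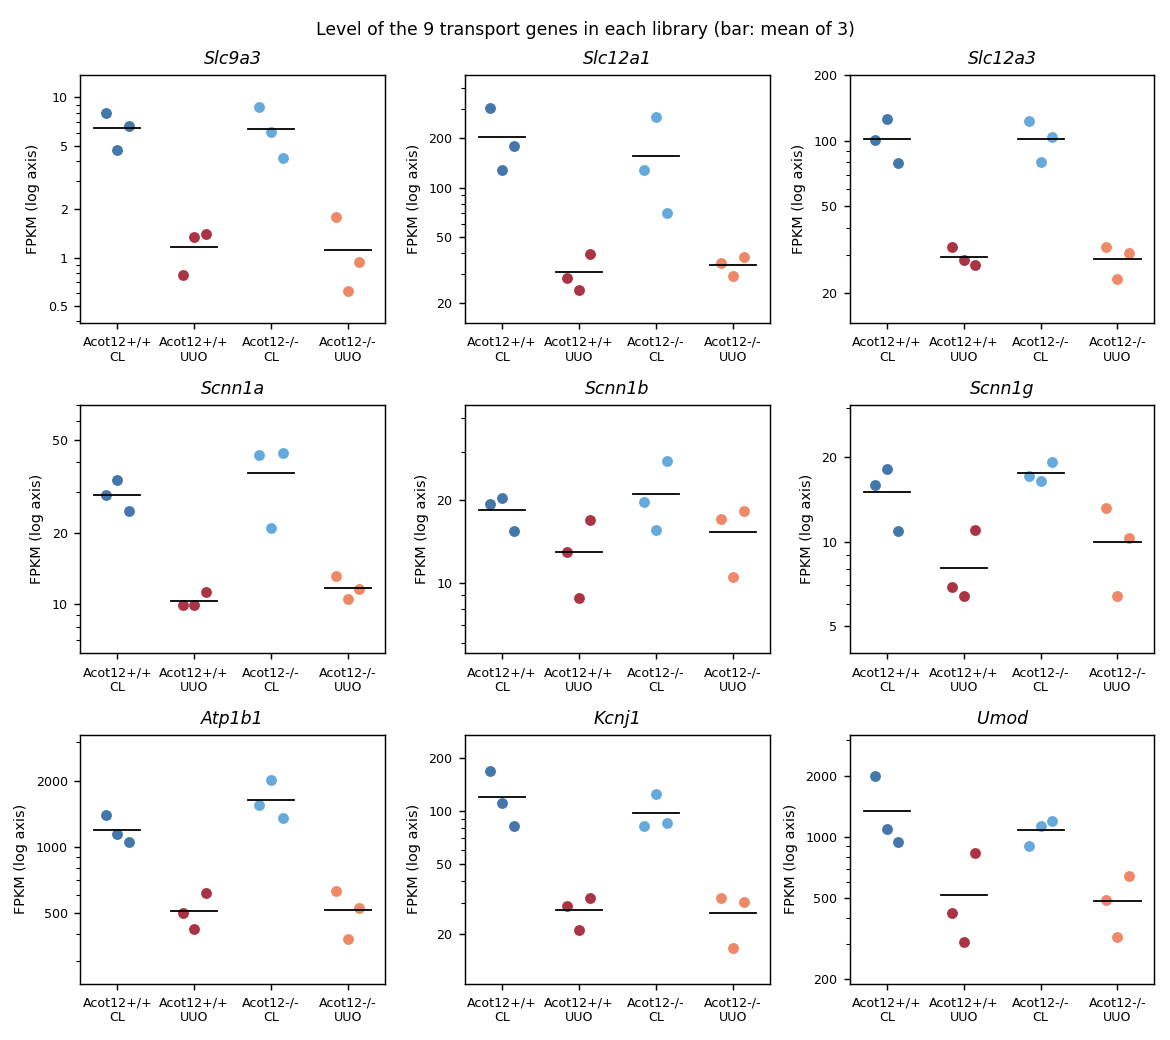
Level of each of the 9 genes (y axis, FPKM, log scale) in every library of the 4 groups (x axis); a point is a library, in the order of replicates 1 to 3, and a bar is the mean of 3. For 7 genes in Acot12+/+ and 8 in Acot12-/- kidneys every UUO point lies under every CL point, and Scnn1b overlaps in both genotypes.

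Whether obstruction changed these levels was asked in each genotype by setting UUO against CL kidneys. In both genotypes 8 of the 9 members fell with UUO (limma on log2(FPKM + 1), Benjamini-Hochberg adjusted p under 0.05 over all genes tested), and the same single gene, Scnn1b, did not pass. Of all genes tested, 23.9% were called lower in Acot12+/+ kidneys, 27.2% in Acot12-/- kidneys and 20.5% in both. The libraries of UUO and CL kidneys did not overlap for 7 of the 9 members in Acot12+/+ (35.8% of all genes, lower) and for 8 in Acot12-/- (27.6%). The median difference of the members was -1.42 on the log2 scale in Acot12+/+ and -1.69 in Acot12-/- kidneys, against 0.01 and -0.01 over all genes.

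The proximal exchanger Slc9a3 was 7.96, 4.72 and 6.59 FPKM in Acot12+/+ CL against 0.773, 1.33 and 1.41 in Acot12+/+ UUO. In Acot12-/- kidneys it was 8.69, 6.13 and 4.16 in CL against 1.80, 0.622 and 0.937 in UUO. The UUO means were thus 18.2% and 17.7% of the CL means, and all UUO libraries lay under all CL libraries. The difference in log2(FPKM + 1) was -1.76 (SE 0.26, limma adjusted p = 0.000231) in Acot12+/+ and -1.78 (SE 0.26, adjusted p = 0.000143) in Acot12-/- kidneys, which understates the change of so low a gene.

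Slc12a1, the salt uptake of the thick ascending limb and the target of loop diuretics, had the largest difference of the members in log2(FPKM + 1) in both genotypes. By group means of FPKM this order held in Acot12+/+ but not in Acot12-/- kidneys, where UUO came to 22.0% of CL for Slc12a1 and to 17.7% for Slc9a3. It was 303, 128 and 178 FPKM in Acot12+/+ CL against 28.4, 24.2 and 39.5 in Acot12+/+ UUO, and 129, 268 and 70.0 in Acot12-/- CL against 35.2, 29.2 and 38.2 in Acot12-/- UUO. The UUO libraries lay close together, while CL libraries of the same group differed by up to 3.82 times. The difference was -2.62 (SE 0.42, limma adjusted p = 0.000363) in Acot12+/+ and -1.95 (SE 0.42, adjusted p = 0.00198) in Acot12-/- kidneys. In each genotype the CL library with the highest Slc12a1 (Acot12+/+ replicate 1, Acot12-/- replicate 2) also had the highest Aqp4, at 22.1 and 29.9 FPKM. With group means taken out, Slc12a1 had a Pearson's r of 0.66 with Aqp4 and of 0.21 with Slc14a2 over the 12 libraries. The part that the depth of the tissue piece has in the level of Slc12a1 was not tested. Leaving out a library moved the difference between -2.91 and -2.29 in Acot12+/+ and between -2.42 and -1.46 in Acot12-/- kidneys.

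Kcnj1, the potassium channel that keeps NKCC2 supplied with luminal potassium, fell to a like extent. Its levels were 168, 110.2 and 82.3 FPKM in Acot12+/+ CL against 28.8, 21.1 and 31.9 in UUO, and 81.8, 125 and 85.1 in Acot12-/- CL against 32.1, 16.8 and 30.5 in UUO. The lowest CL library thus exceeded the highest UUO library by more than the range of the UUO groups. The difference was -2.06 (SE 0.30, limma adjusted p = 0.000215) and -1.87 (SE 0.30, adjusted p = 0.000283).

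Umod, made by the cells of the same segment, differed by up to 2.74 times between libraries of the same UUO group. It was 1985, 1099 and 949 FPKM in Acot12+/+ CL against 425, 305 and 836 in Acot12+/+ UUO, and 907, 1136 and 1198 in Acot12-/- CL against 490, 323 and 641 in Acot12-/- UUO. The groups did not overlap, although replicate 3 of Acot12+/+ UUO came to 88.1% of the CL library of the same number. The difference was -1.42 (SE 0.38, limma adjusted p = 0.00956) and -1.20 (SE 0.38, adjusted p = 0.0193), and without Acot12-/- CL replicate 3 or Acot12-/- UUO replicate 2 the Acot12-/- difference no longer passed.

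Slc12a3, the thiazide-sensitive cotransporter of the distal convoluted tubule, differed by at most 1.59 times within a group. It was 101, 126 and 79.3 FPKM in Acot12+/+ CL against 32.7, 28.4 and 26.9 in UUO, and 123, 79.5 and 104 in Acot12-/- CL against 32.7, 23.3 and 30.6 in UUO. The UUO means were 28.7% and 28.3% of the CL means. The difference was -1.74 (SE 0.21, limma adjusted p = 6.14e-05) in Acot12+/+ and -1.78 (SE 0.21, adjusted p = 3.1e-05) in Acot12-/- kidneys, the lowest adjusted p of the members in each genotype.

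The 3 ENaC subunits differed from each other in their response. Scnn1a, the alpha subunit, was 29.0, 33.7 and 24.8 FPKM in Acot12+/+ CL against 9.86, 9.90 and 11.2 in UUO, and 43.0, 21.0 and 44.0 in Acot12-/- CL against 13.2, 10.5 and 11.5 in UUO. Its difference was -1.40 (SE 0.24, limma adjusted p = 0.000605) and -1.47 (SE 0.24, adjusted p = 0.000309), with no overlap between UUO and CL libraries.

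Scnn1g, the gamma subunit, was 15.9, 18.2 and 10.9 FPKM in Acot12+/+ CL against 6.89, 6.40 and 11.0 in UUO, and 17.2, 16.5 and 19.3 in Acot12-/- CL against 13.3, 6.42 and 10.3 in UUO. The Acot12+/+ groups overlapped, since UUO replicate 3 lay within the range of CL. The difference was -0.82 (SE 0.26, limma adjusted p = 0.0211) and -0.81 (SE 0.26, adjusted p = 0.0197). Without Acot12+/+ CL replicate 1 or 2, or Acot12+/+ UUO replicate 1 or 2, Scnn1g no longer passed in Acot12+/+ kidneys, and without Acot12-/- CL replicate 3 or Acot12-/- UUO replicate 2 it no longer passed in Acot12-/- kidneys.

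Scnn1b, the beta subunit, was 19.3, 20.4 and 15.4 FPKM in Acot12+/+ CL against 13.0, 8.80 and 16.9 in UUO, and 19.7, 15.6 and 27.9 in Acot12-/- CL against 17.1, 10.5 and 18.3 in UUO. UUO and CL libraries overlapped in both genotypes. The difference of -0.52 (SE 0.27, 95% confidence interval -1.11 to 0.08, limma adjusted p = 0.137) in Acot12+/+ and of -0.44 (SE 0.27, interval -1.03 to 0.16, adjusted p = 0.196) in Acot12-/- kidneys did not pass the test. These intervals take in both no difference and a fall as large as that of Scnn1g.

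Atp1b1, which helps bring the pump to the membrane and is used by every segment, was 1394, 1145 and 1045 FPKM in Acot12+/+ CL against 498, 419 and 614 in UUO. In Acot12-/- kidneys it was 1549, 2019 and 1349 in CL against 629, 379 and 526 in UUO. The UUO means were 42.7% and 31.2% of the CL means, with no overlap. The difference was -1.23 (SE 0.24, limma adjusted p = 0.00131) in Acot12+/+ and -1.69 (SE 0.24, adjusted p = 0.000104) in Acot12-/- kidneys.

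**Figure D2:**
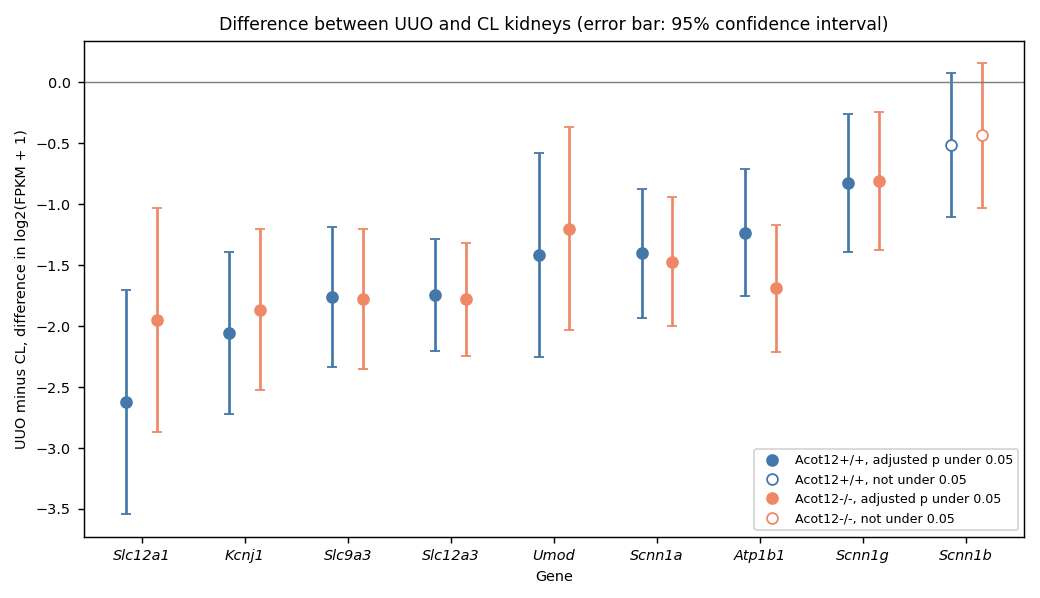
Difference between UUO and CL kidneys in log2(FPKM + 1) (y axis) for each gene (x axis, ordered by the Acot12+/+ value), in Acot12+/+ (blue) and Acot12-/- kidneys (orange), with 95% confidence intervals; filled points passed the adjusted p of 0.05. Slc12a1 lies lowest at -2.62 and -1.95, and the open points of Scnn1b at -0.52 and -0.44 are the only intervals that reach 0.

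These values come from bulk tissue, in which fewer cells of a type and less RNA per cell cannot be told apart. Markers of other cells moved with UUO in the same libraries. The summed level of 4 markers of injured tubule (Havcr1, Krt20, Lcn2, Vcam1) was 5.16 to 51.0 FPKM in CL and 1083 to 1335 in UUO libraries, and all 4 were called higher in both genotypes. The 5 fibroblast markers, all called higher in both genotypes, summed to 29.1 to 94.7 FPKM in CL and 204 to 329 in UUO. The 5 macrophage markers summed to 39.8 to 117 FPKM in CL and 313 to 539 in UUO, with 4 called higher in Acot12+/+ and 5 in Acot12-/- kidneys. None of these 3 lists held a gene at 0 in any library, and their part in the lower levels of the members was not tested.

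Scaling bore on the members as well. When every library was scaled to the same total FPKM, the median of all genes shifted up by 0.62 in Acot12+/+ and 0.45 in Acot12-/- kidneys, and 5 and 6 members passed in place of 8 and 8. Scnn1g and Umod no longer passed in either genotype, nor did Atp1b1 in Acot12+/+ kidneys, and Scnn1b turned to 0.17 and 0.08, neither past the test. Relative to the shifted median all 9 members stayed below it, from -2.52 for Slc12a1 to -0.44 for Scnn1b in Acot12+/+ and from -1.86 to -0.37 for the same genes in Acot12-/- kidneys.

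Whether the loss of Acot12 altered these genes was asked in CL and in UUO kidneys. No member was called in either comparison, and none had an unadjusted p under 0.05. Of all genes tested, 4.48% were called in CL and 0.0151% in UUO kidneys. In CL kidneys the differences of Acot12-/- from Acot12+/+ ran from -0.50 for Slc12a1 (95% confidence interval -1.42 to 0.41) to 0.45 for Atp1b1 (-0.08 to 0.97, the lowest limma adjusted p of the members at 0.386). In UUO kidneys they ran from -0.08 for Kcnj1 (-0.74 to 0.59) to 0.26 for Scnn1g (-0.31 to 0.82). Libraries of the genotypes overlapped for all 9 members in both kidneys, and did not overlap for 18.3% of all genes in CL and 12% in UUO. Scnn1a, at 43.0, 21.0 and 44.0 FPKM in Acot12-/- CL, was called higher than in Acot12+/+ CL once Acot12-/- CL replicate 2 was left out. In that fit 2918 of 13214 genes tested were called, 1536 of them higher, against 593 called in the full fit. Acot12-/- CL replicate 2 held the highest Aqp4 (29.9 FPKM) and, at 38.9 FPKM, the lowest Aqp2, the water channel of the principal cell, of the CL libraries. The part of the tissue piece in the level of Scnn1a was not tested.

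The interaction, which asks whether the change with UUO differed between genotypes, was called for none of the 9 members, with no unadjusted p under 0.05 (0.106% of all genes were called). It ran from -0.46 for Atp1b1 (95% confidence interval -1.19 to 0.28) to 0.67 for Slc12a1 (-0.62 to 1.97). For Slc12a1, Umod, Kcnj1 and Atp1b1 the interval reached past 1 on the log2 scale in a direction, so it takes in both no difference in response and a difference of that size.

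Ratios of members within a library depend little on how libraries are scaled. For each of 15 listed ratios, UUO and CL libraries were compared by an exact two-sided permutation test that exchanged the labels within each genotype (400 arrangements), with p adjusted over the 15. Of these, 5 passed at an adjusted p under 0.05. When labels were exchanged only between CL and UUO kidneys of the same replicate number (64 arrangements), each of the 5 had the smallest p that this design allows, 0.031 in the exact test, and none passed after adjustment (0.067 for each).

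The beta subunit gained on the alpha subunit of ENaC in UUO kidneys. Scnn1a was 1.35 to 2.18 times Scnn1b in the 6 CL libraries and 0.63 to 1.12 times Scnn1b in the 6 UUO libraries. Scnn1a was thus the highest of the 3 subunits in 6 of 6 CL libraries, and Scnn1b in 5 of 6 UUO libraries, the exception being Acot12+/+ UUO replicate 2. The log2 ratio of Scnn1b to Scnn1a was -0.67 ± 0.23 (SD, n = 6) in CL and 0.29 ± 0.31 in UUO, a difference of 0.96 (exact permutation p = 0.005, adjusted 0.025). It was higher in 6 of 6 pairs of the same replicate number, which follows from the lack of overlap between CL and UUO libraries. As shares of the summed FPKM of the 3, Scnn1a went from 47.0% ± 4.68 in CL to 33.1% ± 4.74 in UUO, Scnn1b from 28.9% ± 2.22 to 40.8% ± 3.97 and Scnn1g from 24.2% ± 3.84 to 26.1% ± 2.80. The ratios of Scnn1g to Scnn1a (difference 0.62) and of Scnn1g to Scnn1b (-0.34) each had an adjusted p of 0.05 in the exact permutation test and were not called.

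**Figure D3:**
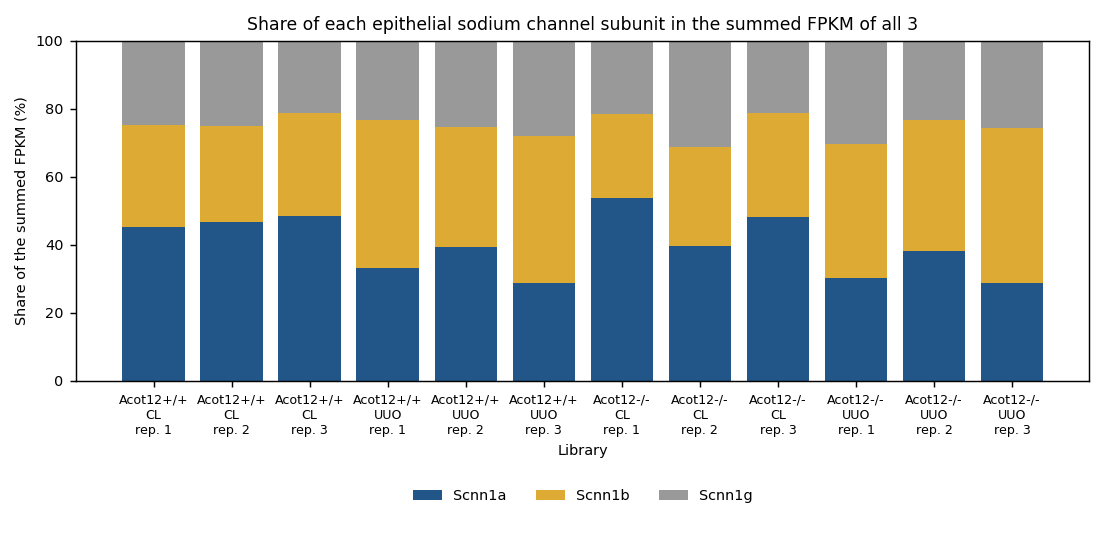
Share of Scnn1a (blue), Scnn1b (yellow) and Scnn1g (grey) in the summed FPKM of the 3 ENaC subunits (y axis, %) in each of the 12 libraries (x axis). Scnn1a takes 39.5% to 53.8% in CL and 28.7% to 39.4% in UUO libraries.

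Slc12a1 and Kcnj1 fell further than the mean log2 level of 4 marker genes of the thick ascending limb. Of these, Cldn10 and Ppp1r1a fell in both genotypes, and the tight junction genes Cldn16 and Cldn19 did not pass. The reference thus depends on the markers taken. The median summed FPKM of the 4 was 501 in Acot12+/+ CL against 115 in UUO, and 400.5 in Acot12-/- CL against 146 in UUO. Relative to the mean log2 level of the 4, Slc12a1 differed by -1.23 between UUO and CL (exact permutation p = 0.015, adjusted 0.045) and Kcnj1 by -0.91 (p = 0.005, adjusted 0.025). Each was lower in 6 of 6 pairs of the same replicate number, which for Kcnj1 follows from the lack of overlap. Of the marker lists, Kcnj1 was set against that of this segment alone, and bulk tissue does not show which segments made its RNA. For Umod the difference was -0.25 (exact permutation p = 0.145, adjusted 0.198). Set directly against Slc12a1, Umod had 4.25 to 17.1 times its FPKM in CL and 11.1 to 21.2 times in UUO libraries, a log2 difference of 0.98 with an adjusted p of 0.05 in the exact permutation test, not called.

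In the distal convoluted tubule the order was the opposite, by the markers taken. Slc12a3 fell less than the mean of the markers of its segment, and its log2 ratio to their mean rose by 2.13 (exact permutation p = 0.005, adjusted 0.025). The rise in 6 of 6 pairs follows from the lack of overlap between CL and UUO libraries. The markers were Pvalb, Calb1 and Trpm6. Pvalb, a calcium-binding protein of the early distal convoluted tubule, was 56.8 to 127 FPKM in CL and at most 0.198 in UUO libraries, in 2 of which it was listed at 0. Calb1, the calbindin of the distal tubule, was 359 to 665 FPKM in CL and 7.25 to 33.6 in UUO libraries, while the magnesium channel Trpm6 (1.90 to 5.36 FPKM in CL, 1.97 to 3.62 in UUO) did not pass in either genotype. Here too the reference depends on the markers taken: the fall of their mean rests on Pvalb and Calb1. Slc12a3 was called lower in both genotypes where Trpm6 was not, and its ratio to Trpm6 alone was not tested. The ratio of Slc12a3 to Slc12a1, cotransporters of consecutive segments, was not called (difference 0.53, exact permutation p = 0.26, adjusted 0.279).

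The ENaC subunits were set against other genes of the principal cell. Scnn1b rose by 0.83 relative to the markers Aqp2, Aqp3 and Avpr2 (exact permutation p = 0.015, adjusted 0.045, 6 of 6 pairs), while Scnn1g (0.49, adjusted p = 0.0825) and Scnn1a (-0.13, adjusted p = 0.66) did not pass the exact permutation test. Aqp2 spread widely in Acot12-/- UUO libraries, at 152, 23.3 and 96.0 FPKM. Slc9a3 against the proximal tubule markers Lrp2, Cubn, Slc34a1, Slc5a2 and Slc22a6 differed by 0.42 (exact permutation p = 0.17, adjusted 0.212), a value that turned to -0.17 with a pseudocount of 0.1. The difference between genotypes was not tested for any ratio.

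**Figure D4:**
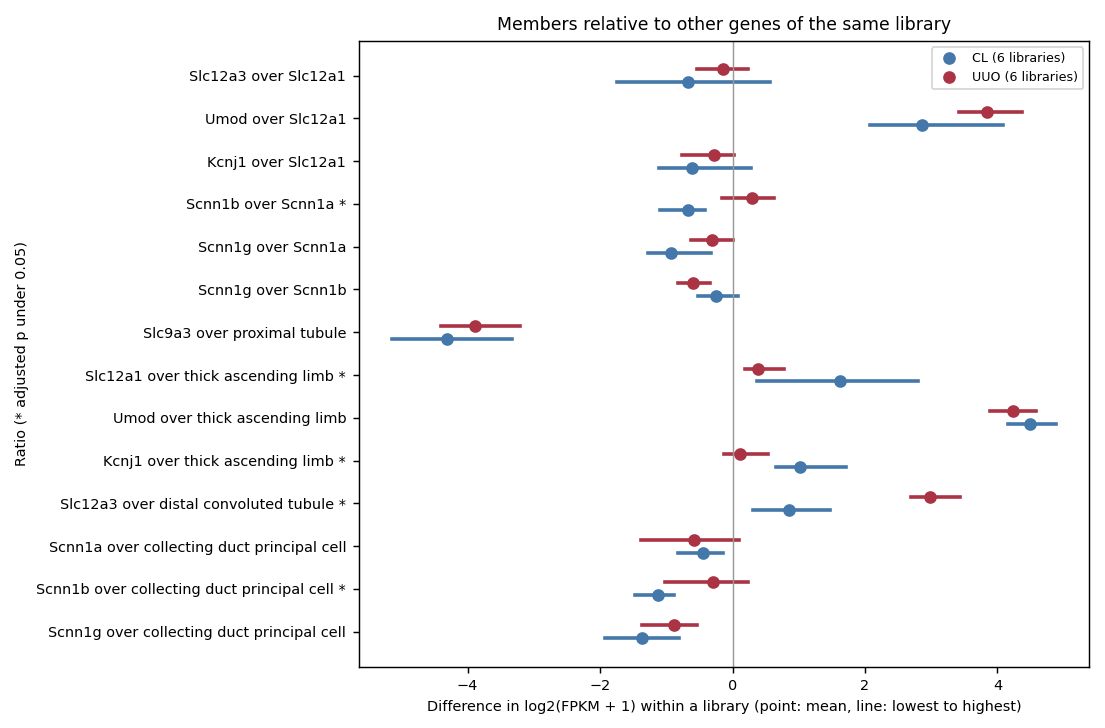
Log2 ratios of members to another gene or to the mean of a marker list (y axis) within each library, as mean (point) and lowest to highest value (line) of the 6 CL (blue) and 6 UUO (red) libraries on the log2(FPKM + 1) scale (x axis). The CL and UUO lines lie fully apart for Scnn1b over Scnn1a, Kcnj1 over thick ascending limb and Slc12a3 over distal convoluted tubule.

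The members also differed in how they varied between libraries of the same group. After group means were taken out, Atp1b1 and Kcnj1 had the highest correlation over the 12 libraries (Pearson's r = 0.91), followed by Scnn1b and Scnn1g (0.81), Kcnj1 and Umod (0.80), Slc12a3 and Scnn1a (0.75) and Slc12a1 and Atp1b1 (0.75). Slc12a1 and Scnn1a ran against each other (r = -0.64), as did Slc12a1 and Slc12a3 to a lesser degree (-0.38). Libraries with more Slc12a1 than others of their group thus tended to have less Scnn1a and Slc12a3. The values are a description: points share library, depth and the piece of tissue taken, and no p was computed.

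**Figure D5:**
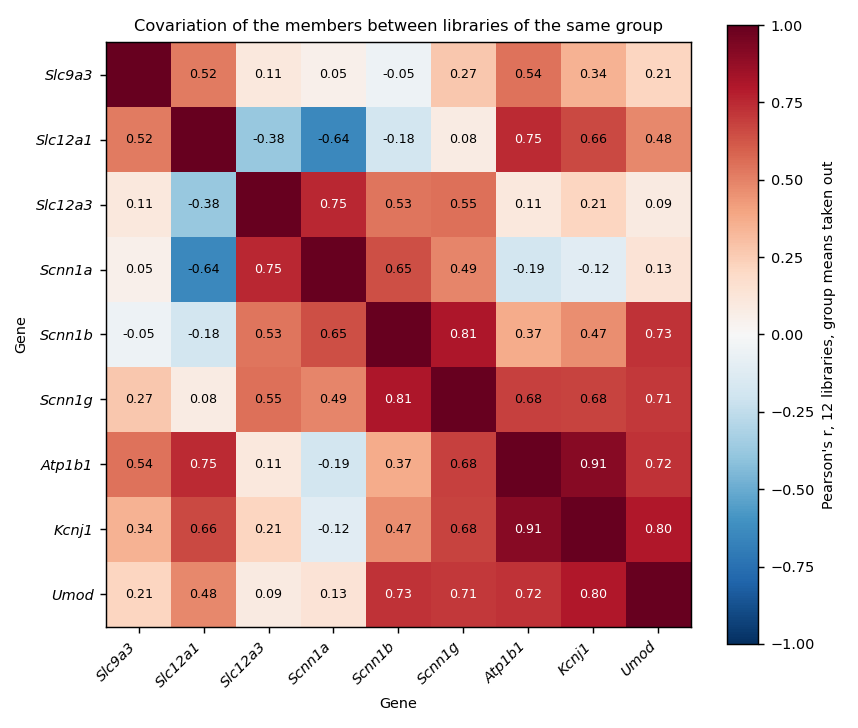
Pearson's r between members over the 12 libraries after group means were taken out, with genes on both axes and r as colour and number. The pair Atp1b1 and Kcnj1 stands highest at 0.91, and Slc12a1 and Scnn1a lowest at -0.64.

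Outside the members, the genes most like each of them were sought among the 6381 genes with a mean of at least 10 FPKM, by Pearson's r of log2(FPKM + 1) over 12 libraries with group means taken out. They were Ankrd13c (r = 0.92), Tmem237 (0.90) and Atrnl1 (0.89) for Slc9a3, and Id4 (0.97), Dnajc3 (0.95) and Lrrc40 (0.95) for Slc12a1. For Kcnj1 they were Hadhb (0.94), Snap29 (0.92) and Pantr1 (0.91), and for Umod Wfdc15b (0.96), Kng2 (0.94) and Slc5a1 (0.91). For Slc12a3 they were Cep89 (0.91), Baiap2 (0.90) and Ccnd1 (0.87). For the channel subunits they were Sf3b4 (0.97), Dtx3 (0.96) and Wdr6 (0.96) for Scnn1a, Gstt1 (0.97), Car15 (0.95) and Unc50 (0.93) for Scnn1b, and Gstm2 (0.92), Car15 (0.90) and Aqp6 (0.89) for Scnn1g. For Atp1b1 they were Dlat (0.95), Afm (0.94) and Hadhb (0.93). Car15 thus appears for both neighbouring subunits, and Hadhb for both Atp1b1 and Kcnj1.

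With the group means left in, so that the response to UUO counts toward the likeness, the leading genes were Ankrd13c, Akr1b10 and Slc25a12 for Slc9a3, Acadsb, Mfap3l and Herc4 for Slc12a1, C1galt1c1, Nudt4 and Bckdhb for Kcnj1, and Akr1c18, Kng2 and Cyp2a4 for Umod. They were Klk1, Fbxo18 and Nacc2 for Slc12a3, Rtca, Xpnpep1 and Vegfb for Scnn1a, Gstt1, Hsbp1 and Mira for Scnn1b, Atp6v1c2, Slc22a13 and Gstm2 for Scnn1g, and Slc25a16, Dlat and Tmem38b for Atp1b1. Their r ran from 0.90 to 0.99.

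The wider machinery was followed in 46 other genes of sodium and potassium transport. In Acot12+/+ kidneys 26 fell, 4 rose and 16 did not pass, and in Acot12-/- kidneys 26 fell, 5 rose and 15 did not pass, with 23 falling and 3 rising in both. Of all genes tested, 23.9% fell and 23.6% rose in Acot12+/+ kidneys, 27.2% fell and 26.6% rose in Acot12-/- kidneys, and 20.5% fell in both. The median difference of the 46 was -0.69 and -0.68. With libraries scaled to equal totals the split was 10 higher and 10 lower in Acot12+/+ and 10 higher and 15 lower in Acot12-/- kidneys. Of all 13243 genes tested, this scaling gave 7424 higher and 1048 lower in Acot12+/+ and 6077 higher and 1551 lower in Acot12-/- kidneys.

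The channels that work beside NKCC2 and NCC moved with them: 8 of the 11 chloride and potassium channel genes of loop and distal tubule fell in both genotypes, as did 20.5% of all genes tested, and none rose. Among them was Kcnj10, a basolateral potassium channel, at 12.5 to 17.3 FPKM in Acot12+/+ CL and 3.08 to 4.88 in UUO, with a difference of -1.71 (SE 0.20, limma adjusted p = 5.33e-05) in Acot12+/+ and -1.73 (SE 0.20, adjusted p = 2.81e-05) in Acot12-/- kidneys. Kcnj15, of the same family, differed by -2.18 (SE 0.25, limma adjusted p = 2.61e-05) in Acot12-/- kidneys and was called lower in Acot12+/+ kidneys too. Of the WNK kinase pathway, which switches NCC on and off, Wnk1, Wnk4, Klhl3 and Cul3 fell in both genotypes, 4 of 6 genes. Oxsr1 rose by 0.38 (SE 0.12, limma adjusted p = 0.0205) in Acot12+/+ kidneys. In Acot12-/- kidneys Oxsr1 was not called, but its UUO libraries all lay above its CL libraries. Of the 7 genes of aldosterone response and channel processing, Sgk1 and Prss8 fell in both genotypes and the mineralocorticoid receptor Nr3c2 in Acot12-/- kidneys. With 20.5% of all genes falling in both, 2 of 7 is near the share over all genes. Of the 3 genes of uromodulin cleavage and loop regulation, Casr and Ptger3 fell in both genotypes, as did 20.5% of all genes. Hpn, the protease that releases uromodulin, was called lower in Acot12-/- kidneys alone, although UUO and CL libraries overlapped there and not in Acot12+/+ kidneys. The Acot12-/- call was lost without the filter and with only the groups compared. With only the groups compared or with the replicate block Hpn was called lower in Acot12+/+ kidneys.

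Of the 8 genes of proximal sodium exchange 5 fell in each genotype, as did 23.9% of all genes tested in Acot12+/+ and 27.2% in Acot12-/- kidneys. Slc9a8, an exchanger of the same family as Slc9a3, differed by -2.08 (SE 0.41, limma adjusted p = 0.00157) and -2.33 (SE 0.41, adjusted p = 0.000536), and Pdzk1, a scaffold of the brush border, by -1.78 (SE 0.26, adjusted p = 0.000196) and -2.20 (SE 0.26, adjusted p = 2.92e-05).

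Other subunits and regulators of the pump moved in both directions. Fxyd2, the gamma subunit of the renal pump, differed by -1.92 (SE 0.38, limma adjusted p = 0.00147) in Acot12+/+ kidneys and was called lower in Acot12-/- kidneys too. Atp1b2, another beta subunit, rose by 1.21 (SE 0.24, limma adjusted p = 0.00134) and 1.82 (SE 0.24, adjusted p = 5.39e-05), at 0.906 to 3.00 FPKM in CL and 4.99 to 11.2 in UUO libraries. It nevertheless stayed far below Atp1b1 in every library. Fxyd5, a pump regulator found in many cell types, rose by 2.35 (SE 0.37, limma adjusted p = 0.00023) in Acot12-/- kidneys. In Acot12+/+ kidneys it was not called, but every UUO library lay above every CL library there as well. It was called there with the replicate block and with only the groups compared.

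Slc12a4, the potassium-chloride cotransporter of most cells, rose by 0.75 (SE 0.14, limma adjusted p = 0.00122) and 1.25 (SE 0.14, adjusted p = 2.51e-05), while its relative Slc12a2 fell in Acot12+/+ kidneys. In the comparison of genotypes Kcnk5, a potassium channel, was the only gene of the 46 called in CL kidneys, where 4.48% of all genes tested were called. Its difference was -0.79 (SE 0.19, limma adjusted p = 0.0373). It was 59.1, 60.0 and 41.4 FPKM in Acot12+/+ CL against 29.9, 23.7 and 38.1 in Acot12-/- CL. The call was lost when any of 9 of the 12 libraries was left out, and also with equal totals and with only the groups compared. Of the 46 none was called in UUO kidneys and none in the interaction. An unadjusted limma p under 0.05 was found for 11 of the 46 in CL kidneys, 1 in UUO kidneys and 5 in the interaction. Of all 13243 genes tested it was found for 2289, 312 and 1389.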

How the data were processed

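Total RNA of 12 kidney cortex samples was sequenced after directional library preparation, and trimming, mapping and normalization were done by a service company for the authors. The submitters' processing notes name edgeR and mm10 without a role, and the aligner and counter are not given in the sources used here. The deposited values carry no unit. They were taken as FPKM that the authors' service company made by normalizing mapped reads, because the smallest values of a library rise in equal steps whose size falls with transcript length. The steps also gave the library sizes, which are effective sizes if the totals were scaled before the values were made. FPKM carry no counts, so counting error enters through the spread between libraries, and their number limits the precision.

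Genes with at least 1 FPKM in at least 3 libraries were tested, leaving out 28 that were listed at 0 beside at least 10 FPKM in the same group. limma 3.58.1 in R 4.3.3 was fitted to log2(FPKM + 1) with the 4 groups in a single model and a variance trend, and a gene was called where its adjusted p (Benjamini-Hochberg, over 13243 genes) was under 0.05. Fold changes on this scale understate those of low genes. Ratios were compared by exact permutation tests in Python 3.11.15. The scripts were tested on simulated data. The members, lists, ratios and tests were chosen with earlier results of these data known.

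Of the other transport genes, the text names the 4 called that rose most and the 4 that fell most per comparison of UUO with CL and those called between genotypes, apart from a few genes and 1 ratio that are counted but not reported here. Others among them, such as the genes listed for the WNK pathway, were named with their values known. Whether replicate numbers pair libraries was checked by correlating residuals over genes between CL and UUO libraries of the same number, which gave 0.13, 0.36 and 0.33 in Acot12+/+ and 0.32, 0.19 and 0.32 in Acot12-/- kidneys, so they were treated as pairs of kidneys. Libraries of unlike number gave -0.363 to 0.139. The highest of these, Acot12+/+ CL replicate 2 with UUO replicate 1, was above CL replicate 1 with UUO replicate 1 (0.134), so that pair is not borne out. This pairing comes from the data, not from the labels. Alternatives were another pseudocount, no filter, median-ratio size factors, equal totals, no trend, only the groups compared, genes listed at 0 kept, a replicate block and each library left out. Positions are from GENCODE vM21 (GRCm38).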

Additional observations from a re-analysis of the deposited data

How the results depend on the processing

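The replicate block kept 8 members called in each genotype, and changed no call of a single member, but no ratio (0 of 15) passed under it. With equal totals 5 members were called in Acot12+/+ kidneys, the difference of Scnn1b turned to 0.17 and 0.081, its interaction to -0.093 and that of Scnn1g to -0.15, none of them called. A pseudocount of 0.1 gave 8 called ratios in place of 5, turned Slc9a3 over proximal tubule markers to -0.17, and gave 2 other transport genes between genotypes in CL kidneys in place of 1. That count was 0 with equal totals and with only the groups compared.

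Leaving out each library gave 7 to 8 called members in Acot12+/+, 6 to 8 in Acot12-/- and 0 to 1 between genotypes in CL kidneys. It gave 0 to 8 called ratios: none without Acot12+/+ CL replicate 1, 3 or fewer without Acot12-/- CL replicate 1 or any UUO library but Acot12-/- replicate 1, and 8 without Acot12-/- CL replicate 3. It gave 20 to 34 other transport genes called in Acot12+/+ kidneys, with 20 without Acot12+/+ CL replicate 1 or UUO replicate 2, and 25 to 33 in Acot12-/- kidneys. Between genotypes in CL kidneys it gave 0 to 9 of them, none without any UUO library, Acot12+/+ CL replicate 1 or 2 or Acot12-/- CL replicate 1, 2 without Acot12+/+ CL replicate 3, 5 without Acot12-/- CL replicate 3 and 9 without Acot12-/- CL replicate 2, and 0 to 2 in the interaction, the 2 again without Acot12-/- CL replicate 2. Without Acot12-/- CL replicate 2, 2918 of all 13214 genes tested were called in CL kidneys and 899 in the interaction. The 9 and the 2 of the 46 do not exceed these shares. Without Acot12-/- CL replicate 3, 680 of all genes were called in CL kidneys.

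Among 18 values that changed sign when a library was left out, none was called in the full fit. Acot12-/- minus Acot12+/+ in CL ranged from -0.51 to 0.0035 for Kcnj1, -0.057 to 0.35 for Scnn1b, -0.17 to 0.17 for Slc12a3, -0.27 to 0.19 for Slc9a3 and -0.46 to 0.071 for Umod. In UUO kidneys it ranged from -0.18 to 0.19 for Atp1b1, -0.24 to 0.21 for Kcnj1, -0.13 to 0.11 for Slc12a3, -0.28 to 0.12 for Slc9a3 and -0.35 to 0.37 for Umod. The interaction ranged from -0.080 to 0.48 for Kcnj1, -0.41 to 0.11 for Scnn1a, -0.15 to 0.31 for Scnn1b, -0.20 to 0.27 for Scnn1g, -0.20 to 0.13 for Slc12a3, -0.25 to 0.21 for Slc9a3 and -0.11 to 0.62 for Umod. Scnn1a over principal cell markers ranged from -0.35 to 0.021. The cause of these shifts was not tested.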
